A study of Mus musculus with 10 samples.

Results

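The Hippo pathway genes *Yap1*, *Tead1*, *Tead2*, *Tead4*, *Lats1*, *Lats2*, *Amot* and *Amotl2* and the YAP target genes *Ctgf* and *Cyr61* were compared between mouse lung squamous cell carcinoma (SCC) and control lung. These 10 genes were listed by name, with no measured value in the rule but with earlier results of these data known, and all 10 have at least 1 probe among the 19096 genes with a named probe on the array. A gene was read at its brightest probe, the probe with the highest mean over all 10 arrays. *Ctgf* and *Cyr61* are the array's names for the genes now called *Ccn2* and *Ccn1*.

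Total RNA was hybridized to Agilent whole mouse genome arrays with 1 colour (Cy3), 1 array per sample. The WT group held 5 whole lungs of 13-month-old B6.129 mice with floxed *Lkb1* alleles and no Cre (Lkb1f/f). The SCC group held 5 whole lung tumors of 13-month-old B6.129 mice that carried the same floxed alleles with the iCre recombinase (CCSPiCreLkb1f/f). Both groups thus shared the floxed alleles and the age, and they differed in the Cre allele, in the presence of a tumor and in the tissue taken. The *CCSP* promoter, that of the club cell secretory protein gene *Scgb1a1*, drives Cre mainly in airway epithelium, so the stroma, vessels and blood cells of the tumors are not its targets. *Lkb1*, the kinase gene also called *Stk11*, is not analysed here at the RNA level. The labels do not tie the arrays to individual mice, so that p-values measure the spread between these samples.

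The Hippo pathway is a kinase cascade that restrains tissue growth. Its core kinases MST1 and MST2 (*Stk4* and *Stk3*), with the scaffold SAV1, activate the kinases LATS1 and LATS2, which phosphorylate YAP (*Yap1*) and its paralogue TAZ (*Wwtr1*) and keep them out of the nucleus. Angiomotins (*Amot*, *Amotl1*, *Amotl2*) bind YAP and hold it at junctions and actin. Unphosphorylated YAP and TAZ enter the nucleus and act through the DNA-binding TEAD factors (*Tead1* to *Tead4*) on genes such as *Ctgf*, *Cyr61*, *Ankrd1*, *Amotl2* and *Lats2*. In the lung the pathway takes part in airway basal cell and alveolar epithelial growth and repair. Phosphorylation and location of YAP are not read by an RNA array.

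TEAD factors bind the element CATTCC, often within the longer ACATTCC, and the promoters of the genes that hold the longer element are shown here as candidate stretches for TEAD contact in these genes. RefSeq windows from 250 bases before to 50 bases after the transcription start (GRCm38.p6) were at hand for 7 of the 10 genes, in 8 windows, since *Lats2* has more than 1 start. *Ctgf*, *Tead1* and *Tead4* had none. ACATTCC or its reverse complement GGAATGT lay in a window of 3 of these genes, *Cyr61*, *Amotl2* and *Yap1*, and in those of 4.47% of all 27025 genes (3.85% of 32851 windows). The shorter CATTCC or GGAATG, which the longer element contains, lay in 4 of them, the fourth being *Lats2* with GGAATG 5 bases after a start, and in those of 16.6% of all genes (14.7% of windows). The 250 bases before the start are printed 5′ to 3′ on the strand of the gene, with the longer element in capitals.
Cyr61, chr3:145649986-145650235, minus strand: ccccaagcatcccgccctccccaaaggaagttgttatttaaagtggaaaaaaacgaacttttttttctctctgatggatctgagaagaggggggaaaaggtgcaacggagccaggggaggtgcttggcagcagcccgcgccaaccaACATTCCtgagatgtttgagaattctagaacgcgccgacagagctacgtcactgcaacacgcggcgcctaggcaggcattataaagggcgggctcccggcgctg
Amotl2, chr9:102717554-102717803, plus strand: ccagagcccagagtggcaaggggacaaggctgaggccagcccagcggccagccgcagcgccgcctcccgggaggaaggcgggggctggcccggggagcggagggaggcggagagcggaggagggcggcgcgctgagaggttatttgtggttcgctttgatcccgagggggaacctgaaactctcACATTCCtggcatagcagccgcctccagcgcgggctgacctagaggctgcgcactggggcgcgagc
Yap1, chr9:8004597-8004846, minus strand: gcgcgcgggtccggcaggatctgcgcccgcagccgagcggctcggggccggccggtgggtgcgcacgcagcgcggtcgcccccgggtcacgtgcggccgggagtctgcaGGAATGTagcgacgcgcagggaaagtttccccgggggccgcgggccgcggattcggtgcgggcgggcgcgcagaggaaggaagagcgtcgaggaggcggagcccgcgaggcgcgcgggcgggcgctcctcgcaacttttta
The element began 104 bases before the start in *Cyr61*, 66 bases before it in *Amotl2* and 141 bases before it in *Yap1*, where it ran in the opposite orientation. *Tead2*, *Lats1* and *Amot* have windows without either element. The differences between SCC and WT on the log2 scale were -1.26, -1.18 and -0.49 for *Cyr61*, *Amotl2* and *Yap1* with the longer element, -1.33 for *Lats2* with the shorter alone, and -0.64, 0.20 and -0.88 for *Tead2*, *Lats1* and *Amot* without either. These matches describe the letters of the windows and no binding was measured.

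Of the array quality measures, the share of probes well above background lay between 71.0% and 74.5% on 9 arrays and at 90.2% on SCC replicate 5, whose median signal was also the highest (251 against 116 to 169). SCC replicate 2 stood apart in its markers. The squamous list (*Krt5*, *Krt14*, *Krt16*, *Krt6a*, *Trp63*, *Dsg3*) was higher in SCC for all 6 genes, of which *Krt6a* and *Dsg3* entered the test through SCC alone, but SCC replicate 2 reached a mean log2 intensity of only 11.57, where the remaining tumors reached 14.95 to 15.35 and WT 4.72 to 5.22. *Krt6a* and *Dsg3* were not well above background on any WT array. The arrays were printed on 3 slides. Slide 1 held WT replicates 1 to 4 alone, slide 3 held SCC replicates 4 and 5 alone, and slide 2 was shared by WT replicate 5 and the first 3 SCC replicates.

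Most of the Hippo pathway genes were lower in the tumors. Intensities were quantile-normalized between arrays and taken as log2, and SCC was compared with WT by limma (two-sided) with Benjamini-Hochberg adjustment over all 30374 tested probes. A gene passed with an adjusted p below 0.05 and was called when it also differed at least 2-fold. Of the 10 genes, 9 passed lower in SCC and 0 passed higher, where over the 15586 genes tested 28.4% passed lower and 25.5% passed higher. The genes called lower were *Tead1*, *Lats2*, *Ctgf*, *Cyr61* and *Amotl2*, 5 of 10, beside 13.4% of all genes called lower and 11.6% called higher. Every SCC array lay below every WT array for 8 of the 10 genes, beside 22.5% of all genes. The median difference over the 10 genes was -1.01 (log2) and that over all genes was -0.04. All 10 genes were well above background on all 10 arrays. Only slide 2 held both groups, so slide and group can hardly be told apart in these counts.

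**Figure D1:**
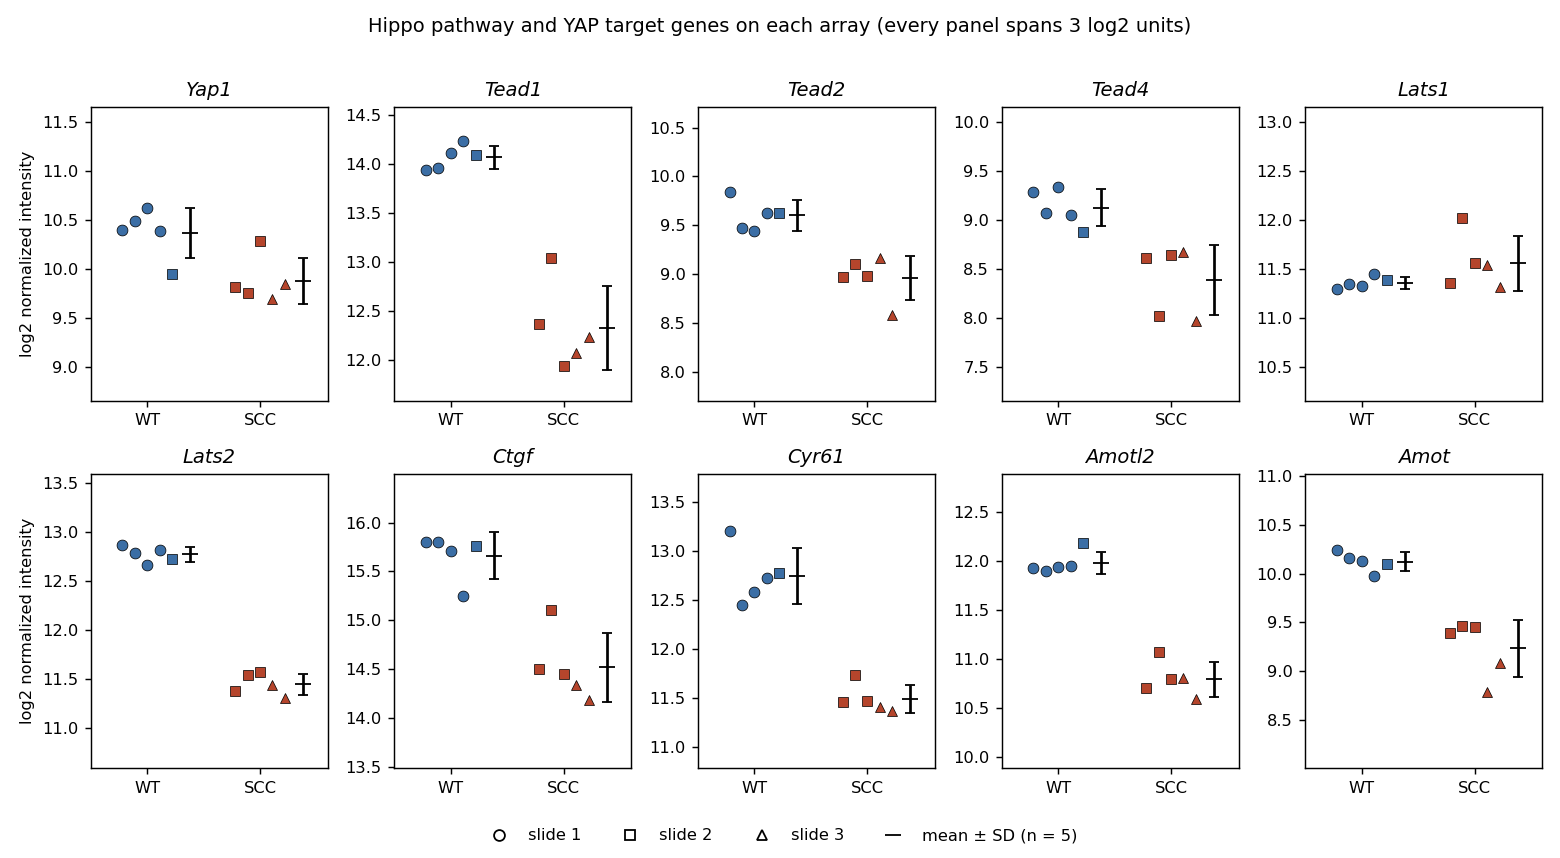
Log2 quantile-normalized intensity of the 10 genes on each of the 5 WT and 5 SCC arrays, with the symbol giving the slide and the bar the mean ± SD of the group. Every SCC array sits below every WT array except for Yap1, where the groups overlap, and Lats1, where the SCC arrays lie among or above the WT arrays.

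*Yap1*, the co-activator that the pathway restrains, changed the least of the genes that passed. It stood at 10.40, 10.49, 10.62, 10.39 and 9.95 (log2 intensity) on WT replicates 1 to 5 and at 9.81, 9.75, 10.29, 9.70 and 9.85 on SCC replicates 1 to 5. The groups overlapped, because WT replicate 5 was lower than SCC replicate 3. The mean was 10.37 ± 0.25 (SD, n = 5) in WT and 9.88 ± 0.23 (SD, n = 5) in SCC, a difference of -0.49 or 1.41-fold (SE 0.154, limma adjusted p = 0.0243). The two-sided exact permutation test gave p = 0.0159. On slide 2, the slide that both groups share, the mean of the 3 SCC arrays differed from WT replicate 5 by 0.0037, with 2 of 3 below it. With the slide as a fixed block the difference was the same 0.0037, since only slide 2 holds both groups and its 1 lung was the lowest WT array. With the slide as a random block it was -0.50 (limma adjusted p = 0.0206). The difference missed the threshold when any 1 of 5 arrays was left out (WT replicate 1, 2 or 3, or SCC replicate 1 or 4), at -0.48 to -0.43 (limma adjusted p = 0.0502 to 0.0616). Without any of the other arrays it passed, at -0.60 to -0.46 (limma adjusted p = 0.00782 to 0.0497).

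*Wwtr1*, which encodes TAZ and is given for its kinship to *Yap1* and not by the rule for named genes, differed by -0.20 (SE 0.122, limma adjusted p = 0.189) at its brightest probe. Its dimmer probe differed by 0.68 (limma adjusted p = 0.0282), so the probes disagree.

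*Tead1* fell the most of the 10 genes. Its log2 intensity was 13.94, 13.96, 14.12, 14.24 and 14.10 on WT replicates 1 to 5 and 12.37, 13.04, 11.94, 12.08 and 12.24 on SCC replicates 1 to 5. SCC replicate 2 was the nearest to WT and still lay 0.90 below the lowest WT array. The difference was -1.74 (SE 0.191, limma adjusted p = 7.88e-05), a 3.33-fold lower signal, with the exact permutation p at 0.00794, the smallest that 5 against 5 arrays can give. This smallest value was also reached by *Tead2*, *Tead4*, *Lats2*, *Ctgf*, *Cyr61*, *Amotl2* and *Amot*. A dimmer *Tead1* probe was lower by less, at -0.75 (limma adjusted p = 0.0159). The dimmest was well above background on 4 WT arrays and on 1 SCC array, so that it entered the test through WT and its -0.75 is set against a group mostly at background. The mean of all 3 probes differed by -1.08.

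*Tead2* stood at 9.84, 9.47, 9.44, 9.63 and 9.63 on the WT arrays and at 8.97, 9.11, 8.98, 9.17 and 8.58 on the SCC arrays. The groups did not overlap, with the lowest tumor value on SCC replicate 5. The difference was -0.64 (SE 0.13, limma adjusted p = 0.00277), and a dimmer probe gave -0.61 (limma adjusted p = 0.0166).

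*Tead4* stood at 9.28, 9.07, 9.33, 9.05 and 8.88 on the WT arrays and at 8.60, 8.01, 8.64, 8.67 and 7.97 on the SCC arrays. Here SCC replicates 2 and 5 were the low tumors, the other 3 lay close together, and no tumor reached the lowest lung. The difference was -0.74 (SE 0.175, limma adjusted p = 0.00619). The remaining family member, *Tead3*, which was not among the 10 genes, went the other way. It was higher in SCC by 1.07 (SE 0.153, limma adjusted p = 0.000369), from a dim signal of 4.86 to 5.37 in WT to 5.67 to 6.41 in SCC. With the slide as a fixed block *Tead2* gave -0.61 (limma adjusted p = 0.157) and *Tead4* -0.46 (limma adjusted p = 0.401), and neither passed.

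Of the kinase genes, *Lats2* passed lower and *Lats1* did not pass. *Lats1* stood at 11.30, 11.35, 11.33, 11.45 and 11.39 on the WT arrays and at 11.36, 12.02, 11.56, 11.54 and 11.31 on the SCC arrays. The tumors spread more widely than the lungs (SD 0.28 against 0.06), mainly through SCC replicate 2. The difference was 0.20 (SE 0.133, limma adjusted p = 0.238) with a 95% confidence interval of -0.10 to 0.49. Without SCC replicate 2 it was 0.083 (limma adjusted p = 0.386). A dimmer probe gave 0.25 (limma adjusted p = 0.189).

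*Lats2*, itself a transcriptional target of YAP, stood at 12.87, 12.78, 12.66, 12.81 and 12.72 on the WT arrays and at 11.38, 11.54, 11.57, 11.44 and 11.31 on the SCC arrays. Each group was tight and a gap of 1.10 separated them. The difference was -1.33 (SE 0.085, limma adjusted p = 4.62e-06), a 2.51-fold lower signal. Dimmer probes gave -1.45 (limma adjusted p = 1.39e-05) and -0.79 (limma adjusted p = 0.00264), while the dimmest, which the array assigns to another transcript record, gave 0.29 (limma adjusted p = 0.493), and the mean of the 4 probes differed by -0.82. No test of the difference between the changes of *Lats2* and *Lats1* is given, since the pair was noted after the values were seen.

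The angiomotin genes *Amotl2* and *Amot* were lower. *Amotl2*, whose product holds YAP at junctions and whose promoter carries the element shown above, stood at 11.93, 11.90, 11.94, 11.95 and 12.18 on the WT arrays and at 10.70, 11.08, 10.80, 10.80 and 10.59 on the SCC arrays. The highest tumor lay 0.82 below the lowest lung. The difference was -1.18 (SE 0.108, limma adjusted p = 2.87e-05) or 2.27-fold. *Amot* stood at 10.24, 10.16, 10.13, 9.97 and 10.10 on the WT arrays and at 9.39, 9.46, 9.46, 8.79 and 9.08 on the SCC arrays. SCC replicates 4 and 5, the tumors on slide 3, were the lowest. The difference was -0.88 (SE 0.141, limma adjusted p = 0.000713) or 1.84-fold. With the slide as a fixed block, which rests on 1 WT array, it was -0.66. The 2 other *Amot* probes were well above background on 0 WT arrays and on 1 SCC array each, and were not tested. The probes of the third angiomotin gene, *Amotl1*, which was not among the 10 genes and is given for its kinship to them, disagree: the brighter differed by -0.83 (SE 0.308, limma adjusted p = 0.0480) and the dimmer by 1.37 (SE 0.441, limma adjusted p = 0.0270). SCC replicate 5 was the lowest tumor at the brighter probe (6.10 against 7.49 to 7.75) and the highest at the dimmer (8.53 against 5.58 to 7.52).

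The matricellular genes *Ctgf* and *Cyr61*, the targets most often used to read YAP activity, were both lower in the tumors. *Ctgf* stood at 15.80, 15.80, 15.71, 15.25 and 15.76 on the WT arrays and at 14.51, 15.10, 14.46, 14.34 and 14.19 on the SCC arrays. The groups came close only through WT replicate 4, which was low for a lung, and SCC replicate 2, which was high for a tumor. The difference was -1.14 (SE 0.182, limma adjusted p = 0.000709), a 2.21-fold lower signal. With the slide as a fixed block, which rests on 1 WT array, it was -1.07. *Cyr61* stood at 13.21, 12.46, 12.58, 12.73 and 12.78 on the WT arrays and at 11.46, 11.73, 11.47, 11.41 and 11.37 on the SCC arrays. WT replicate 1 was the high lung and SCC replicate 2 the high tumor, and the groups did not overlap. The difference was -1.26 (SE 0.144, limma adjusted p = 9.88e-05) or 2.40-fold.

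**Figure D2:**
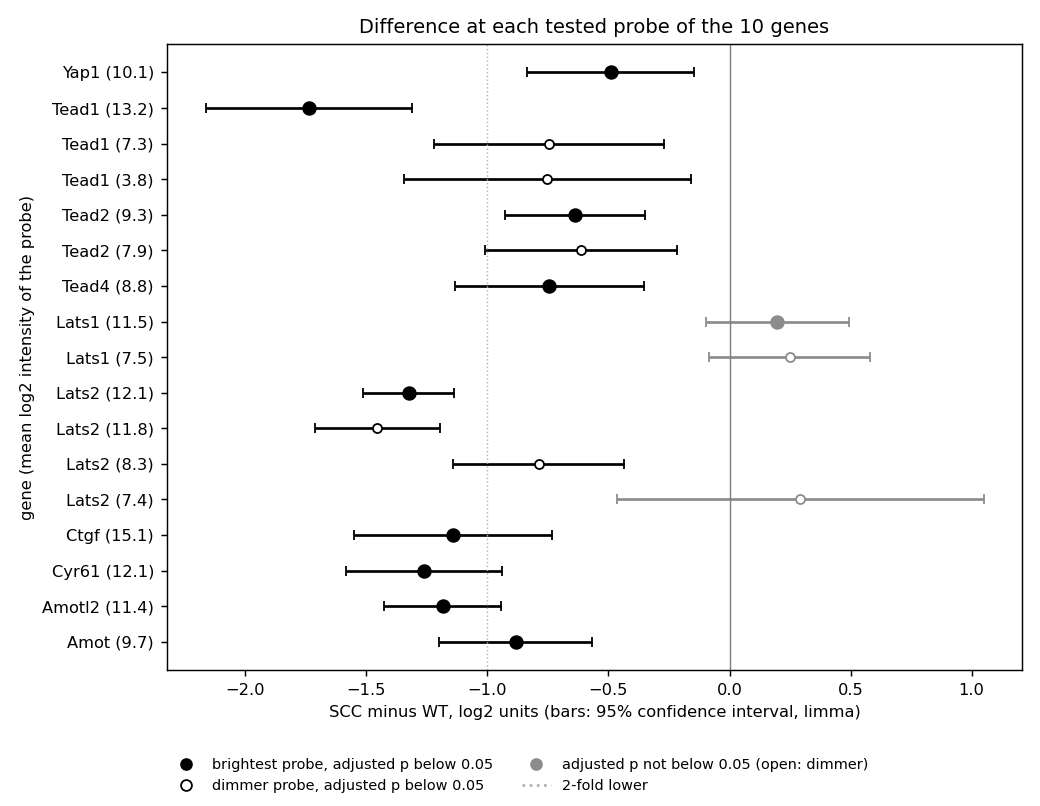
Difference of SCC minus WT (log2) with its 95% confidence interval at each of the 17 tested probes of the 10 genes, with the probe's mean log2 intensity in brackets. 14 probes were lower in SCC with an adjusted p below 0.05, including the dimmest of Tead1, which was well above background on 1 SCC array only, and the 3 grey probes, both of Lats1 and the dimmest of Lats2, did not pass.

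Of the 19 probes of the 10 genes, 17 were tested. Leaving out the dimmest *Tead1* probe, which entered the test through WT, 13 of 16 passed lower. Of all tested probes, which include others that entered through 1 group alone, 26.6% passed lower. *Yap1*, *Tead4*, *Ctgf*, *Cyr61* and *Amotl2* rested on 1 probe each. Within slide 2 the 3 SCC arrays lay below WT replicate 5 for 8 of the 10 genes, all but *Yap1* and *Lats1*, beside 36.8% of all genes tested. There the mean SCC difference from that lung was -1.65 for *Tead1*, -1.32 for *Amotl2*, -1.23 for *Lats2*, -1.22 for *Cyr61*, -1.07 for *Ctgf*, -0.66 for *Amot*, -0.61 for *Tead2*, -0.46 for *Tead4* and 0.26 for *Lats1*. These values rest on 1 WT array. With the slide as a fixed block only slide 2 informs the contrast, so that fit returns these same differences and is no separate check.

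The order of the tumors differed between genes. SCC replicate 2 was the highest SCC array for 6 of the 10 genes (*Tead1*, *Lats1*, *Ctgf*, *Cyr61*, *Amotl2* and *Amot*) and SCC replicate 5 the lowest for 7 (*Tead2*, *Tead4*, *Lats1*, *Lats2*, *Ctgf*, *Cyr61* and *Amotl2*), where over all tested genes the first was so for 39.2% and the second for 27.0%, and over all genes that passed lower for 63.1% and 36.5%. SCC replicate 3 was the highest tumor for *Yap1* and *Lats2*, and SCC replicate 4 for *Tead2* and *Tead4*. Without SCC replicates 2 and 5 together, *Yap1* no longer passed (-0.44, limma adjusted p = 0.0608). In that fit 5 of the 10 genes were called, all lower, where 2263 of all genes were called lower and 2094 higher.

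The wider pathway was read from 3 lists of other genes, with the 10 genes left out. The kinase cassette and upstream regulators numbered 25 genes, of which 23 were tested, 12 passed lower, 4 passed higher and 7 did not pass, beside the 28.4% and 25.5% of all genes that passed lower and higher. Their median difference was -0.37. Called at 2-fold were *Fat4*, *Wwc2* and *Stk4*, all lower, 3 of 23, a share close to the 13.4% of all genes called lower. *Fat4*, a giant cadherin, differed by -2.15 (SE 0.435, limma adjusted p = 0.00275) and *Wwc2*, a paralogue of the KIBRA gene, by -1.33 (SE 0.112, limma adjusted p = 1.88e-05). For *Fat4* SCC replicate 5 stood at 5.17, where the remaining tumors stood at 7.27 to 7.89 and WT at 9.05 to 9.26. *Stk4*, the gene for MST1, differed by -1.04 (SE 0.119, limma adjusted p = 9.87e-05) and is named because the count is small, after its value was seen.

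Among the other effectors and cofactors, 6 genes, *Vgll1* and *Vgll2* were too dim to be tested, and of the remaining 4, 2 passed lower, 1 passed higher (*Tead3*) and 1 did not pass (*Wwtr1*). *Vgll3*, which encodes a TEAD-binding cofactor, was lower by 2.88-fold (difference -1.52, SE 0.144, limma adjusted p = 3.52e-05).

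Of 18 further YAP/TAZ target genes, 11 passed lower, 4 passed higher and 3 did not pass, with a median difference of -0.56 (28.4% lower and 25.5% higher over all genes). At 2-fold, 7 of the 18 were called lower and 1 higher, beside 13.4% and 11.6% of all genes. *Ptpn14* stands on this list and on the upstream list. The 7 called lower were *Ankrd1*, a cardiac and stress-induced ankyrin repeat gene (-3.95, limma adjusted p = 9.26e-05), *Foxf2*, a mesenchymal transcription factor (-2.33, limma adjusted p = 9.09e-05), *Crim1* (-1.50, limma adjusted p = 4.17e-05), *Fjx1* (-1.45, limma adjusted p = 0.0144), the growth factor gene *Tgfb2* (-1.43, limma adjusted p = 0.000124), *Rbms3* (-1.32, limma adjusted p = 0.000158) and *Nt5e*, the gene for CD73 (-1.14, limma adjusted p = 0.000254). *Igfbp3*, an insulin-like growth factor binding protein gene, was the only target called higher, by 2.22 (SE 0.205, limma adjusted p = 3.13e-05), and its groups did not overlap.

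**Figure D3:**
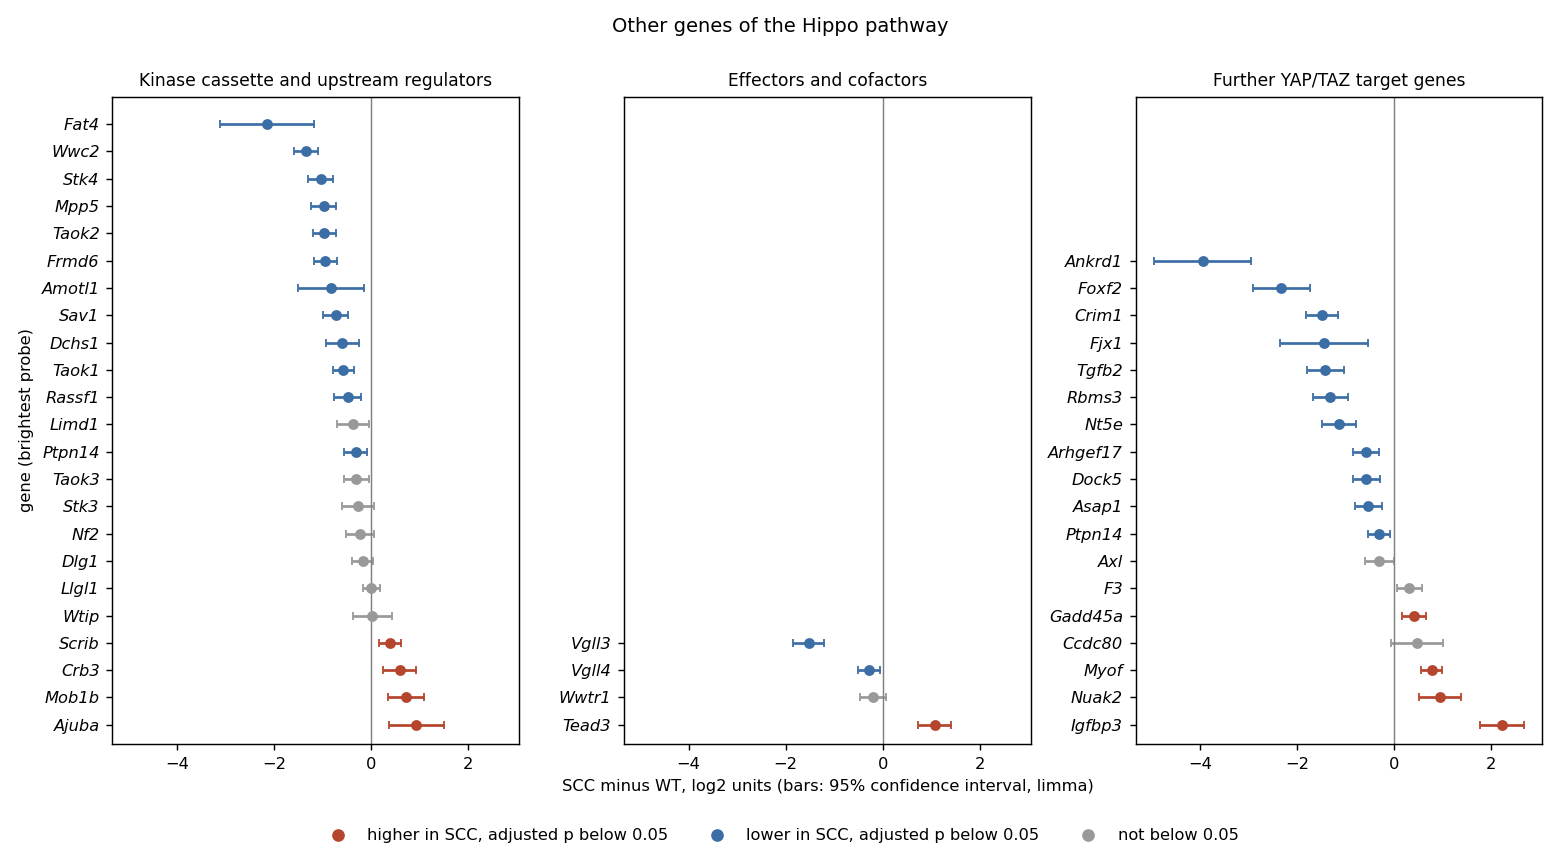
Difference of SCC minus WT (log2) with its 95% confidence interval at the brightest probe of each tested gene of the 3 lists. Points to the left of 0 are lower in SCC, and blue and red points passed: 24 genes lower and 9 higher, with Ankrd1 at -3.95 and Igfbp3 at 2.22 the ends of the range.

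Over the 3 lists together, 48 genes of which 44 were tested, 24 passed lower, 9 passed higher and 11 did not pass, where 28.4% of all genes passed lower and 25.5% higher. At 2-fold, 11 were called lower and 2 higher, where 13.4% and 11.6% of all genes were, and the median difference was -0.42. SCC replicate 2 was the highest SCC array for 14 of the 24 genes that passed lower, and SCC replicate 5 the lowest for 10, shares that over all genes that passed lower were 63.1% and 36.5%. Without SCC replicates 2 and 5, 34 list genes passed, 24 lower and 10 higher, and the share of all genes that passed was not counted there.

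The RNA came from whole tissue, in which fewer cells of a type and less RNA per cell cannot be told apart, and marker lists of other cell types moved with the groups. Endothelial markers were lower in SCC for 7 of 7 genes, with a median difference of -2.37. Their summed linear intensity was 189411 to 252198 in WT and 41885.5 to 78622.8 in SCC, and their mean log2 intensity on SCC replicate 2, 12.78, exceeded the 11.73 to 12.01 of the remaining tumors. *Vwf* and *Cldn5*, the brightest of the list, differed by -1.78 and -2.47.

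Among stromal markers, 4 of 6 smooth muscle and pericyte genes were lower (summed intensity 43056.4 to 56952 in WT and 30210.3 to 42537.9 in SCC). Of the brightest 2 of this list, *Tagln* differed by -0.87 (limma adjusted p = 0.00129) and *Acta2* by 0.40 (limma adjusted p = 0.0629), which did not pass. Of 6 fibroblast markers 4 were lower and 1 was higher, with summed intensities of 97317.8 to 110479 in WT and 57195.2 to 85459.3 in SCC. The epithelial lists were also lower in part. Alveolar type 1 markers gave 3 lower and 1 higher of 4 tested, alveolar type 2 markers 2 lower of 4, club cell markers 3 lower of 3 and ciliated markers 1 lower of 3. *Sftpc*, among the alveolar type 2 genes that did not pass, stood at the same 18.80 on every WT array (SD 0), so its probe may not show a change.

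Cardiac muscle markers were lower for 4 of 5 genes (median difference -3.37), and their summed intensity spread widely in WT, 7444.71 to 78310.8, against 1781.81 to 6862.04 in SCC. *Ankrd1*, which is abundant in heart, stood at 12.92, 13.82, 12.76, 12.85 and 12.56 on the WT arrays and at 8.80, 10.67, 8.08, 9.01 and 8.59 on the SCC arrays. Among the lungs, the mean log2 intensity of the cardiac list and that of *Ankrd1* were both highest on WT replicate 2 (13.66 and 13.82). The list was lowest on WT replicate 1 (9.82), where *Ankrd1* stood at 12.92, beside 12.56 to 12.85 on WT replicates 3 to 5. Proliferation markers were higher for 4 of 4 genes, neutrophil markers for 3 of 4 tested, and macrophage markers gave 2 higher and 1 lower of 4. On SCC replicate 2 the mean log2 intensity was 10.68 for the neutrophil and 11.89 for the macrophage list. The remaining tumors stood at 13.12 to 13.27 and 13.09 to 13.23, and WT at 10.79 to 11.64 and 12.04 to 12.62. The part of cell composition in the differences of the Hippo pathway and YAP target genes was not tested.

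**Figure D4:**
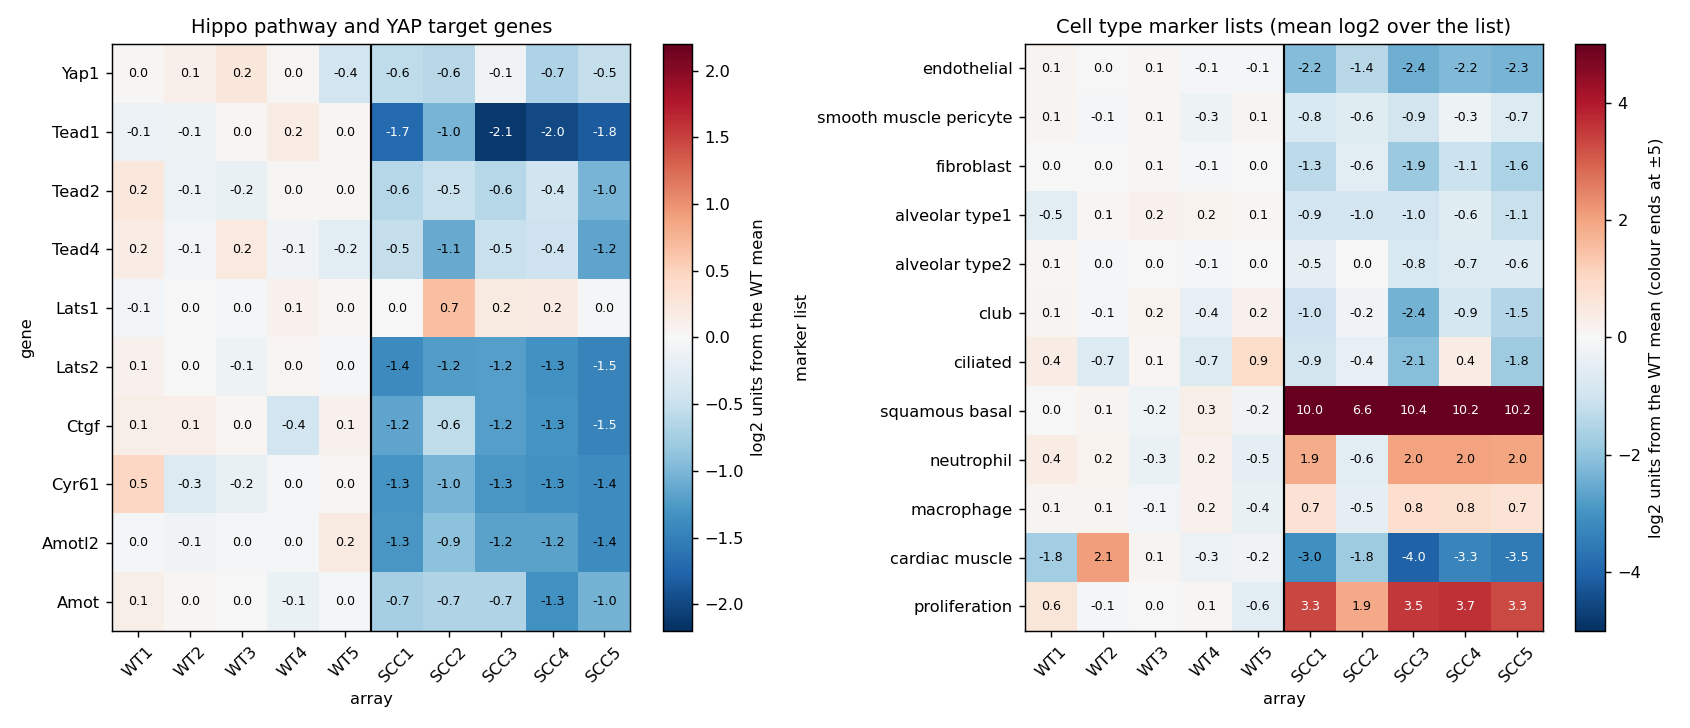
Deviation of each array from the WT mean (log2) for the 10 genes (left) and for the mean of each cell type marker list (right), with arrays as columns and separate colour scales. SCC replicate 2 deviates less than the other SCC arrays for Tead1, Ctgf, Cyr61, Amotl2 and, narrowly, Amot, and the most for Lats1. It also deviates less for the endothelial, fibroblast, alveolar type 2, club, cardiac, squamous and proliferation lists. For the neutrophil and macrophage lists it lies below every WT array, where the other SCC arrays lie above.

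The genes whose pattern over the 10 arrays was most like that of *Yap1*, among 14109 genes well above background on all arrays, were *Hp1bp3* (Pearson r = 0.955), *Ppm1a* (r = 0.953) and *Prkci* (r = 0.949). Their differences between SCC and WT were -0.33, -0.31 and -0.30. For *Ctgf* they were *Rab11fip3* (r = 0.986), *Acer2* (r = 0.980) and *Rnf130* (r = 0.980), with differences of -0.79, -2.29 and -0.61. These correlations over 10 arrays hold the difference between the groups and the slides, and they are given as a description.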

How the data were processed

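Total RNA of 5 WT lungs and 5 SCC tumors was measured on Agilent 4x44K mouse arrays, 1 array per sample, with 41174 probes, of which 68.5% carry a gene symbol. Per the file headers, the deposited scanner files hold background-subtracted processed intensity from Agilent Feature Extraction 12. The authors' deposited table holds log2 values after quantile normalization (r of at least 0.99996 with the values used here, with a largest absolute difference of 1.22 at a tested probe).

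Spots of a probe were averaged, and processed intensities were quantile-normalized and taken as log2. A probe was tested when well above background on at least 4 of 5 arrays of a group. SCC and WT were compared with limma 3.58.1 (R 4.3.3) and Benjamini-Hochberg adjustment over 30374 probes, and single genes also by an exact permutation test over arrays. The fit was tested on simulated data. Precision is limited by the number of arrays, and no spot was saturated.

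The genes and lists were chosen with earlier results of these data known. Besides the 10 genes, pathway list genes called at 2-fold were named, up to the 12 largest differences, with up to 2 markers per list and the 3 genes most like *Yap1* and *Ctgf*. Alternatives were 75th percentile scaling, normexp correction (offset 50, on median in place of mean spot signals), the authors' table, other filters, slide and replicate blocks, array weights, the mean of probes, the methods' analysis of variance and leaving out arrays. Counts of genes that passed under each were added after the data were seen.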

Additional observations from a re-analysis of the deposited data

Results flagged for a closer look

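In 4 of the 20 groups formed by the 10 genes in WT and in SCC, 1 array lay far from the other 4 of its group, where chance gives about 1 in 20. *Yap1* in SCC was highest on replicate 3 (10.29 against 9.70 to 9.85), a gap of 0.745 of the range. *Ctgf* in WT was lowest on replicate 4 (15.25 against 15.71 to 15.80), a gap of 0.828. *Cyr61* in SCC was highest on replicate 2 (11.73 against 11.37 to 11.47), a gap of 0.727. *Amotl2* in WT was highest on replicate 5 (12.18 against 11.90 to 11.95), a gap of 0.827, and this array alone of the WT arrays lay on slide 2.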

How the results depend on the processing

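*Tead1*, *Lats2*, *Cyr61* and *Amotl2* passed lower under each of 22 alternatives, and *Lats1* passed under none of them. With the slide as a fixed block *Yap1* was 0.0037 (limma adjusted p = 0.994), *Tead2* -0.61, *Tead4* -0.46, *Ctgf* -1.07 and *Amot* -0.66 missed the threshold, 4 of the 10 genes and 14 pathway list genes passed, and 1818 genes were called (3887 without it); fewer arrays then inform the contrast, and other causes were not tested. *Yap1* also missed it without both SCC replicates 2 and 5 (-0.44), and ranged from -0.60 to -0.43 when 1 array was left out. With the adjusted p alone 9 of the 10 genes and 8402 genes were called. The mean of the probes of a gene left 4 of the 10 called. Scaling to the 75th percentile moved the median over all probes from -0.09 to 0.03 and the calls over all genes from 2084 lower and 1803 higher to 1779 lower and 1970 higher, and it turned no direction among the 10 genes. WT and SCC share replicate numbers only (r from -0.10 to 0.0087 between the deviations of arrays of the same number, none the best match of its number), and the replicate block left 5 of the 10 genes called and 3687 genes in all, and it changed no call among the 10. The 5 arrays of a group limit what small differences can be seen.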
